A study of Mus musculus with 18 samples.

Results

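The adenylyl cyclases are the enzymes that turn ATP into cyclic AMP (cAMP). The 8 genes described here are those of the study's table of 170 signalling components whose symbol begins with Adcy, namely Adcy1, Adcy2, Adcy3, Adcy4, Adcy5, Adcy6, Adcy7 and Adcy9. All 8 were found by their UCSC identifier among the 12064 genes of the mesoderm table and among the 11231 genes of the neural tube (NT) and forelimb bud (FL) table. The study drew up that signalling table on the mesoderm libraries used here, so the direction of the mesoderm values is not independent of the choice of genes. Each gene was measured by RNA-Seq, which counts fragments of its mRNA, and by Ribo-Seq, which counts ribosome-protected fragments (RPFs), the stretches of mRNA shielded by a ribosome. There were 3 replicates of each library type in each of 3 tissues of mouse embryos at E11.5, or 18 libraries in all. Mesoderm cells came from embryos heterozygous for R26-mTmG flox (flox/+) that also carried the transgene Tg(T-cre)1LWD/J, in which Cre under the T promoter switches on GFP in descendants of the primitive streak, and they were sorted for GFP. NT and FL were dissected from the same wild-type FVB embryos. Cycloheximide, which halts ribosomes on mRNA, was present in the solutions used for all 3 tissues, and some neural tubes were frozen before use. The methods call the replicates biological, and the labels do not say how many embryos made up each.

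Membrane adenylyl cyclases are switched on by the G protein subunit that receptors release, and they differ in what else governs them. Adcy1 and Adcy3 are stimulated by calcium through calmodulin. Adcy2, Adcy4 and Adcy7 respond to the beta-gamma subunits of G proteins, Adcy5 and Adcy6 are inhibited by calcium and by inhibitory G proteins, and Adcy9 is the member least sensitive to the drug forskolin. The cAMP they make activates protein kinase A (PKA), which in the neural tube and the limb bud restrains the Hedgehog pathway.

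The members lie on 7 chromosomes of GRCm38 (mm10) in the GENCODE annotation. Adcy1 is at chr11:7063489-7178506 on the plus strand, Adcy3 at chr12:4133103-4213525 (plus), Adcy2 at chr13:68620043-68999541 (minus) and Adcy4 at chr14:55769057-55784095 (minus). Adcy7 is at chr8:88272403-88329962 (plus), Adcy5 at chr16:35154877-35305738 (plus), Adcy6 at chr15:98589973-98610076 (minus) and Adcy9 at chr16:4287529-4420498 (minus). In the annotated transcript with the longest reading frame, coding lengths ran from 3234 nt in Adcy4 to 4062 nt in Adcy9, with a median of 3397.5 nt against 2404.5 nt over the 170 signalling genes. The isoforms the authors counted can differ from these. The sequences around the start codon of each member are shown because the ribosomes counted here begin there. Each line holds 9 bases of 5′ UTR, the start codon in capitals and 6 further coding bases.
Adcy1: ggcgctgagATGgcgggg
Adcy3: gcagccaacATGccgagg
Adcy2: gccgccccgATGtggcag
Adcy4: gggaagaccATGgcccgc
Adcy7: gggaagaggATGccagcc
Adcy5: gagggggggATGtccggc
Adcy6: attcaaagcATGtcatgg
Adcy9: ctcggcaacATGgcttcc

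On the transcript strand, the start motif ANNATGG was present in Adcy4 and Adcy9 and GNNATGG in Adcy1. These are 3 of 8 members, against 78 of the 170 signalling genes with either motif. The annotated 5′ UTRs were 76 nt in Adcy9, 111 nt in Adcy1, 154 nt in Adcy6, 183 nt in Adcy4, 246 nt in Adcy2, 497 nt in Adcy3, 508 nt in Adcy7 and 1222 nt in Adcy5. They held no upstream ATG in Adcy2, Adcy4 and Adcy9, 1 in Adcy1, 2 in Adcy6, 3 in Adcy3, 5 in Adcy5 and 6 in Adcy7. The median 5′ UTR was 214.5 nt over the members and 216 nt over the 170 signalling genes.

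Library depth was 38054003 to 50136443 reads in mesoderm RNA-Seq, 11000015 to 16802829 in mesoderm Ribo-Seq, 16710643 to 33061460 in the NT and 12967893 to 27993385 in the FL, as estimated from the steps of the normalized values. The FL Ribo-Seq libraries did not resemble each other equally. Replicates 1 and 2 had a Pearson r of 0.98 with each other and of 0.89 to 0.90 with replicate 3, over log2(normalized reads + 1) of all genes. With the FL RNA-Seq libraries, replicates 1 and 2 reached 0.73 to 0.74 and replicate 3 reached 0.90 to 0.91. NT Ribo-Seq replicate 3 had an r of 0.93 with the other two NT replicates, which had 0.99 with each other. Calls and counts that rest on the FL Ribo-Seq libraries are therefore given with and without FL replicate 3. The tissue labels were checked by RNA-Seq of markers, of which none was at 0. Summed Nes and Dcx were 17436 to 29556 normalized reads in the NT and 4668 to 5567 in the FL, and summed Msx1, Hoxd13 and Lhx2 were 2154 to 2501 and 11753 to 15466. In the sorted mesoderm, normalized apart, Nes and Dcx summed to 6460 to 8651, the limb markers to 4567 to 7477 and Pdgfra and Pdgfrb to 15716 to 18261, while Csf1r had 697 to 964. The 5 endothelial markers there summed to 1517 to 3717, lowest in replicate 1, where Tie1 had 427 against 1436 and 1185. In the dissected tissues the mesenchymal markers Pdgfra and Pdgfrb summed to 1586 to 1828 in the NT and 17354 to 20152 in the FL, the macrophage marker Csf1r had 461 to 608 and 391 to 467, and 5 endothelial markers summed to 4289 to 4577 and 3336 to 4633. In whole tissue, fewer cells of a type and less RNA per cell cannot be told apart.

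Adcy6, one of the calcium-inhibited cyclases, had the most mRNA per length in all 3 tissues. Per kilobase of counted coding sequence, its RNA-Seq level was 1555 ± 227 normalized reads (SD, n = 3) in the mesoderm, 904 ± 71.7 in the NT and 1389 ± 96.8 in the FL. These levels are compared between genes within a tissue only, since the mesoderm table was normalized apart from the other. In the NT the next was Adcy5 with 443 ± 45.7 per kb, followed by Adcy2 with 233 ± 35.4, Adcy1 with 185 ± 15.7, Adcy3 with 150 ± 34.7, Adcy4 with 120 ± 24.6, Adcy9 with 105 ± 23.7 and Adcy7 with 42.3 ± 7.1. The replicates of Adcy1, Adcy3, Adcy4 and Adcy9 overlapped from each to the next, and those of the other neighbours in this order did not. In the FL, Adcy4 came second with 558 ± 49.5 per kb and Adcy3 after it with 309 ± 9.71. Adcy5 followed with 219 ± 20.8, Adcy2 with 123 ± 32.9, Adcy1 with 93.7 ± 16.5, Adcy7 with 68.3 ± 9.44 and Adcy9 with 62.1 ± 1.11. Only the pairs Adcy2 and Adcy1, and Adcy7 and Adcy9, overlapped among neighbours there. The mesoderm had the same leading genes as the FL, with Adcy4 at 450 ± 68.4 and Adcy3 at 289 ± 60.3 per kb. Adcy7, Adcy2, Adcy5, Adcy1 and Adcy9 lay between 166 ± 52.4 and 66.6 ± 13.6 per kb in that order, each overlapping its neighbour.

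On ribosomes, Adcy6 also led in every tissue by its mean, with RPF levels of 389 ± 77.7 per kb in the mesoderm, 359 ± 53.6 in the NT and 338 ± 259 in the FL. Adcy1 RPFs were 11.7 ± 8.28 per kb in the mesoderm, 82.3 ± 21.9 in the NT and 13.9 ± 14.1 in the FL. The FL error was as large as the value itself for Adcy1, which is the spread of the 3 FL Ribo-Seq libraries described above.

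**Figure D1:**
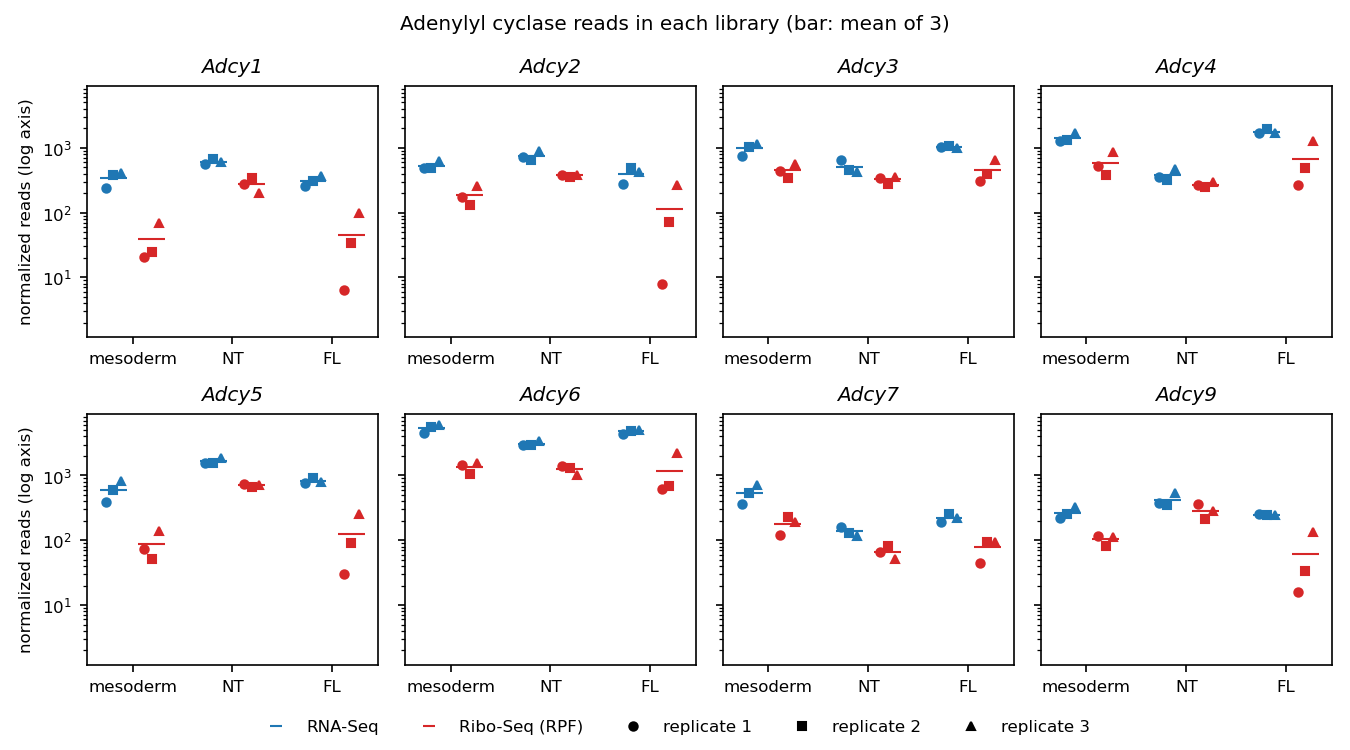
Normalized reads (log axis) of the 8 adenylyl cyclases in each of the 18 libraries, with RNA-Seq in blue, Ribo-Seq in red, symbols for replicates and a bar for the mean of 3. In the FL the red points of Adcy1, Adcy2, Adcy5 and Adcy9 spread widely, with replicate 1 lowest and replicate 3 highest, whereas the blue points lie close together.

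Translational efficiency (TE) was taken as RPFs over mRNA on the log2 scale, after adding 1 to the normalized reads, and centred on the median gene of the tissue, so that 0 is the median gene and negative values lie below it. A gene was called TE-low at a Benjamini-Hochberg adjusted p below 0.05 over all genes of the table and at least 3-fold below the median. In the mesoderm 4 of the 8 adenylyl cyclases were TE-low, where 10.9% of all genes were. They were Adcy1, Adcy5, Adcy6 and Adcy7, and no member was TE-high, as 1.17% of all genes were. The study, by a count model with the same thresholds on these libraries, reported 3 of 8 as TE-low. Of the 162 other signalling genes of the mesoderm table, 19.1% were TE-low by limma. Adcy1 had 238, 386 and 411 normalized RNA reads and 20.9, 24.9 and 70.0 normalized RPFs in replicates 1, 2 and 3. These RPF values stood for only 14, 12 and 31 reads, so the size of the TE is loosely set. The log2 TE of Adcy1 was -3.49, -3.94 and -2.57, which put it 10.1-fold below the median (limma, SE 0.28 on the log2 scale, adjusted p = 5.96e-06). Only 0.854% of genes had a lower TE.

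Adcy5 and Adcy6, the calcium-inhibited pair, were next in the mesoderm. Adcy5 had 386, 605 and 808 RNA reads and 73.0, 51.9 and 140 RPFs, a TE 7.18-fold below the median (adjusted p = 6.22e-06 by limma). Adcy6 had 4480, 5624 and 5979 RNA reads and 1445, 1037 and 1542 RPFs, a TE 4.12-fold below the median (adjusted p = 1.23e-05 by limma). RNA and RPF values did not overlap for either gene. Thus the cyclase with the most mRNA was TE-low together with 3 that had far less. Among the cyclases responsive to beta-gamma subunits, Adcy7 lay 3.05-fold, Adcy2 2.97-fold and Adcy4 2.61-fold below the median, so that Adcy7 and Adcy2 fell on opposite sides of the 3-fold threshold with SEs of 0.20 and 0.19 on the log2 scale. Adcy7 was no longer TE-low without replicate 1 (-1.58) or without replicate 3 (-1.45). Adcy2 became TE-low without replicate 1 (-1.60) or without replicate 3 (-1.69), and Adcy9 without replicate 1 (-1.59). Adcy9 was 2.59-fold and Adcy3 2.23-fold below the median with all replicates, and the adjusted p of all 8 members was at most 0.000459. The 24 single values of log2 TE in the mesoderm were all below 0.

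In the NT no adenylyl cyclase was TE-low by limma, where 4.30% of all genes were and 0.427% were TE-high. All 8 still had a TE below the median in each of the 3 replicates, and 4 of them, Adcy1, Adcy2, Adcy5 and Adcy6, had an adjusted p below 0.05 at any fold, as 15.6% of all genes did on that side. Without NT replicate 2 the count was 1, Adcy6 (adjusted p = 0.0206 by limma), where 6.89% of all genes were. It was 4 without NT replicate 1 or 3, for which no share of all genes was computed. At an unadjusted p below 0.05 there were 6 of 8, as were 41.8% of all genes in either direction. The lowest was Adcy6, with 3006, 2944 and 3399 RNA reads and 1381, 1303 and 1029 RPFs. Its log2 TE of -1.15, -1.21 and -1.75 gave a mean of -1.37 ± 0.23 (SE, adjusted p = 0.00602 by limma). Adcy5 had 1556, 1554 and 1850 RNA reads and 752, 657 and 707 RPFs, and a log2 TE of -1.25 ± 0.23 (SE, adjusted p = 0.00772). Adcy1, at -1.23 ± 0.28, had 559, 662 and 607 RNA reads and 273, 343 and 199 RPFs. Adcy1, Adcy5 and Adcy6 were thus near one another in the NT, while in the mesoderm the TE of Adcy1 was the lowest of the 3.

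Adcy7 was at -1.06 ± 0.40 and Adcy2 at -1.03 ± 0.25 in the NT. Adcy3 (-0.65 ± 0.27), Adcy9 (-0.58 ± 0.29) and Adcy4 (-0.51 ± 0.28) had the values closest to the median gene. Adcy4 RPFs, at 265, 251 and 293, stayed below its RNA reads of 353, 322 and 470 in every replicate. The adjusted p of these 3 members and of Adcy7 was between 0.0758 and 0.187. The 2 tables were normalized separately, so no test was made of the mesoderm against the NT.

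In the FL 6 of 8 members were TE-low, where 13.4% of all genes were TE-low and 6.28% were TE-high. They were Adcy1, Adcy2, Adcy4, Adcy5, Adcy6 and Adcy9, and the replicates differed widely. Of the 143 other signalling genes of the NT and FL table, 21.7% were TE-low in the FL. Adcy1 had 256, 306 and 365 RNA reads and 6.41, 34.1 and 97.0 RPFs, the first of which stood for 4 reads. Its log2 TE was -5.12, -3.13 and -1.90 in replicates 1, 2 and 3, and -3.38 ± 0.60 in the fit (SE, adjusted p = 0.00644 by limma). Adcy5 had 761, 904 and 782 RNA reads and 30.5, 89.5 and 251 RPFs, with a log2 TE of -4.60, -3.33 and -1.64. RNA of both genes varied little, and the spread of their TE lay in the RPFs.

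Adcy2 showed the widest range, with 280, 487 and 424 RNA reads and 8.02, 70.3 and 264 RPFs, or a log2 TE of -4.96, -2.78 and -0.68. Adcy9 had 254, 247 and 245 RNA reads and 16.0, 34.1 and 136 RPFs, a log2 TE of -3.91, -2.83 and -0.85. Adcy6 had 4404, 4942 and 5015 RNA reads and 622, 678 and 2196 RPFs, a log2 TE of -2.83, -2.87 and -1.19. In all of these replicate 3 was the closest to the median gene. Adcy4, with 1684, 1953 and 1679 RNA reads and 268, 494 and 1284 RPFs, went from -2.65 and -1.98 to -0.39. It was not TE-low without replicate 1 (-1.19) or without replicate 2 (-1.53). Adcy7 (-1.56 ± 0.34, SE) and Adcy3 (-1.29 ± 0.29) did not reach the 3-fold threshold with all replicates. Without replicate 3 all 8 members were TE-low, where 18.2% of all genes and 42 of the 143 other signalling genes were. Without replicate 2 Adcy7 was TE-low too (-1.65). Such fits of 1 tissue hold little replication, and their adjusted p rests largely on the spread shared over all genes. In replicate 3 taken singly, the log2 TE of the members was between -1.90 and -0.39, with Adcy1 and Adcy5 lowest. The family was thus below the median gene in every FL replicate, and the depth of its values differed between replicates.

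**Figure D2:**
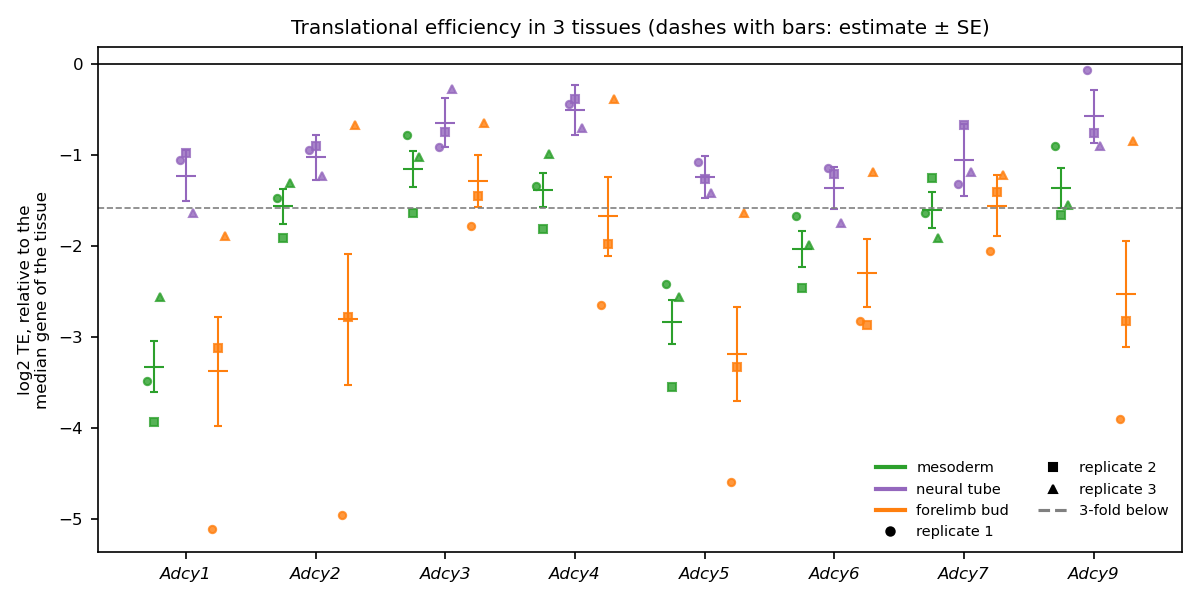
Log2 TE of each adenylyl cyclase relative to the median gene of the tissue, in the mesoderm (green), NT (purple) and FL (orange), with symbols for replicates, dashes with bars for the limma estimate ± SE and a dashed line at 3-fold below the median. Every point is below 0, and FL replicate 3 is above FL replicates 1 and 2 for every gene.

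FL and NT were compared within 1 fit over their 12 libraries, which share 1 estimate of the spread and give mRNA, RPF and TE differences as FL minus NT. The 3 differences are made from the same libraries and are not independent of each other. By mRNA, 2 of 8 cyclases were called higher in FL at an adjusted p below 0.05, where 10.3% of all genes were, and none was called lower, where 12.3% were. Adcy4 had 353, 322 and 470 RNA reads in the NT and 1684, 1953 and 1679 in the FL, a 4.68-fold difference (log2 2.23 ± 0.41 SE, adjusted p = 0.00122 by limma). Adcy3 had 640, 460 and 419 in the NT and 1045, 1074 and 1008 in the FL, 2.09-fold higher (adjusted p = 0.0116 by limma). The groups did not overlap for either gene. The Adcy3 call was lost without NT replicate 2, NT replicate 3 or FL replicate 2, with an adjusted p between 0.059 and 0.0614.

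The RNA-Seq libraries of the 2 tissues did not overlap for the other 6 members either. Adcy1, Adcy2, Adcy5 and Adcy9 had fewer RNA reads in every FL library than in any NT library, which held for 24.1% of all genes. Adcy3, Adcy4, Adcy6 and Adcy7 had more, which held for 23.3%. The log2 differences were -0.99 ± 0.65 for Adcy1, -0.95 ± 0.82 for Adcy2, -1.02 ± 0.51 for Adcy5, -0.73 ± 0.56 for Adcy9, 0.62 ± 0.37 for Adcy6 and 0.69 ± 0.35 for Adcy7 (SE), with an adjusted p of 0.198 or more. These errors carry the spread of the Ribo-Seq libraries, which the fit pools with that of RNA-Seq. In a fit of the RNA-Seq libraries alone, chosen after the data were seen, Adcy1, Adcy2, Adcy5 and Adcy9 were lower in FL (adjusted p = 0.00368, 0.0106, 0.000494 and 0.0295 by limma), 4 of 8 where 17.9% of all genes were. Adcy3, Adcy4 and Adcy6 were higher (adjusted p = 0.0016, 5.8e-06 and 0.0036), 3 of 8 where 16.3% were, and Adcy7 had an adjusted p of 0.0664. Without FL replicate 3, Adcy6 was called higher in the fit of both library types (adjusted p = 0.0352 by limma) as 1 of 3 members, where 11.2% of all genes were higher and 13.6% lower. With FL replicate 3 as the only FL sample, Adcy5 was called lower (adjusted p = 0.0338), where 7.66% of all genes were, and Adcy4 higher (adjusted p = 0.00231), where 4.21% were. The mesenchymal markers, higher in FL, and Nes and Dcx, higher in NT, moved along with these differences, and their part in them was not tested.

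By RPFs, 4 of 8 members were called lower in FL, where 22.7% of all genes and 33.6% of the 143 other signalling genes were. No member was called higher, where 22.6% and 20.3% were. At an unadjusted p below 0.05 there were 5 of 8, the fifth being Adcy4, on the higher side, where 53.8% of all genes were in either direction. Adcy1 RPFs were 273, 343 and 199 in the NT against 6.41, 34.1 and 97.0 in the FL, 9.03-fold lower (log2 -3.17 ± 0.65 SE, adjusted p = 0.00181 by limma). Adcy5 RPFs were 752, 657 and 707 against 30.5, 89.5 and 251, 7.88-fold lower (adjusted p = 0.000488 by limma). Adcy9 (6.49-fold lower, adjusted p = 0.00182 by limma) and Adcy2 (6.74-fold lower, adjusted p = 0.016) made up the 4, and none of these overlapped between tissues, as 21.1% of all genes did not on that side. No member had more RPFs in every FL library than in any NT library, as 21.5% of all genes had. The 4 genes with fewer RPFs were the 4 with fewer RNA reads in the FL. The log2 differences without FL replicate 3 were -4.04 for Adcy1, -3.88 for Adcy2, -3.72 for Adcy5 and -3.53 for Adcy9, and without FL replicate 1 they were -2.18, -1.44, -2.22 and -2.02, so that the folds depended on which FL library was left out. Without NT replicate 1 or NT replicate 2 the Adcy2 call was lost (adjusted p = 0.0636 and 0.0581).

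The remaining cyclases overlapped between tissues in RPFs. Adcy4 had 265, 251 and 293 RPFs in the NT and 268, 494 and 1284 in the FL (log2 1.04 ± 0.41 SE, adjusted p = 0.0559 by limma), and was called higher without FL replicate 1 (1.56, adjusted p = 0.00845). Adcy6 (-0.33 ± 0.37), Adcy3 (0.39 ± 0.27) and Adcy7 (0.16 ± 0.35) were not called. Without FL replicate 3, Adcy6 was lower in FL (-0.92, adjusted p = 0.00105) and 5 members were called lower, where 31.2% of all genes were, and none higher, where 31.6% were. In a fit of the Ribo-Seq libraries alone, also chosen after the data were seen, Adcy1, Adcy5 and Adcy9 were lower (adjusted p = 0.0275, 0.0136 and 0.0263 by limma), 3 of 8 where 14.7% of all genes were, and none was higher, where 13.5% were. Every member had a larger SE there, such as 0.66 against 0.51 for Adcy5, because the fit of both types pools the RPF spread with that of RNA-Seq. For Adcy2 the SE was 1.04 against 0.82, and it was not called (adjusted p = 0.083 by limma). With FL replicate 3 as the only FL sample, a choice made after the data were seen in which that sample is assumed to vary like the NT samples, Adcy1 (-1.44, adjusted p = 0.0346) and Adcy5 (-1.49, adjusted p = 0.0057) were lower and Adcy4 was higher (2.25, adjusted p = 0.00165). All genes called under that choice were 8.97% lower and 5.63% higher. Adcy1 and Adcy5 were thus lower in RPFs by each of these choices, while Adcy2 (-0.50) and Adcy9 (-1.04) were not called from replicate 3.

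The difference in TE between the tissues was called for none of the 8 members by limma at an adjusted p below 0.2 and at least 2-fold, where 0.276% of all genes were lower in FL and 0.125% higher. At an unadjusted p below 0.05 there were 3 of 8, Adcy1, Adcy5 and Adcy9, where 16.9% of all genes were in either direction. The estimates were all below 0, from -2.19 ± 0.92 (SE) for Adcy1, -1.97 ± 0.79 for Adcy9, -1.96 ± 0.73 for Adcy5 and -1.81 ± 1.16 for Adcy2 to -1.19 ± 0.59 for Adcy4, -0.95 ± 0.52 for Adcy6, -0.67 ± 0.39 for Adcy3 and -0.53 ± 0.50 for Adcy7. An estimate below 0 was also found in 108 of the 143 other signalling genes and in 5562 of all 11231 genes. For the members, the adjusted p ran from 0.291 to 0.508. That 6 members were TE-low in FL and none in NT therefore does not show, with all libraries, that their TE differed between the tissues.

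The calls changed when single replicates were left out. Without FL replicate 3, 6 of 8 members had a lower TE in FL, where 19.3% of all genes did and 16.1% had a higher one, namely Adcy1 (-2.93, adjusted p = 0.0134), Adcy2 (-2.87, 0.0303), Adcy9 (-2.81, 0.00486), Adcy5 (-2.74, 0.00432), Adcy4 (-1.83, 0.00841) and Adcy6 (-1.50, 0.00359). With FL replicate 3 as the only FL sample, none of the members and 0 of all genes was called, and the estimates lay between -0.70 for Adcy1 and 0.32 for Adcy2, with a median of -0.10. Between these choices the RNA difference that moved most was that of Adcy1, from -1.12 to -0.74. Without NT replicate 3 only Adcy5 was called (-2.04, adjusted p = 0.199), 1 of 8 where 1235 of the 11231 genes (11%) were lower in FL and 1000 (8.90%) were higher. Without FL replicate 1 or 2, or NT replicate 1 or 2, no member was. Over all genes, leaving out 1 replicate gave 0 to 2167 lower and 0 to 1805 higher in FL, with the lowest counts among these settings.

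**Figure D3:**
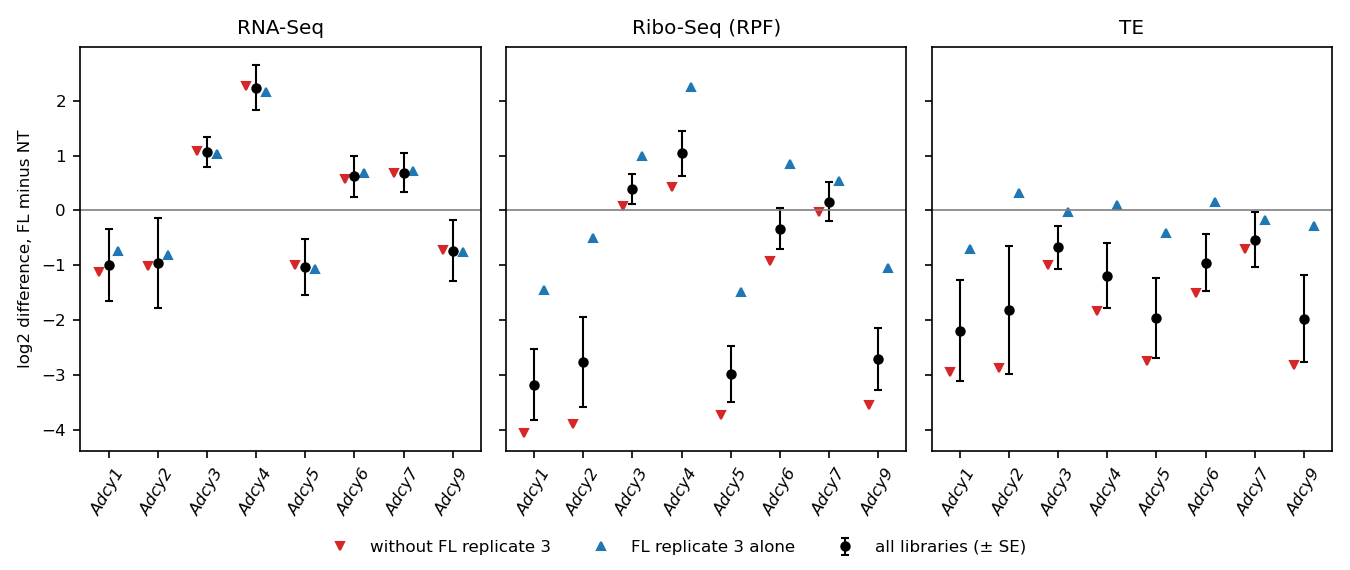
Log2 difference of FL minus NT for mRNA, RPFs and TE of each adenylyl cyclase, with all libraries (black, ± SE), without FL replicate 3 (red) and with FL replicate 3 as the only FL sample (blue). The 3 choices lie close together for RNA-Seq and apart for RPFs and TE, where blue lies between -0.70 and 0.32 for TE and red reaches -2.93.

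Among the signalling genes, the FL Ribo-Seq replicates differed in a way that tracked coding length. All 8 cyclases had fewer RPFs in FL replicate 1 than in replicate 3, by a log2 ratio of -4.88 to -1.07 with a median of -2.63, and in replicate 2 than in replicate 3, by -1.96 to -0.03 with a median of -1.48. Over all 11231 genes the median of these ratios was 0.04 and 0.05. Over the 151 signalling genes of the NT and FL table, the ratio of replicate 1 to replicate 3 had a Pearson r of -0.61 with log2 coding length and a Spearman rho of -0.67, and that of replicate 2 to replicate 3 had -0.58 and -0.62. For NT Ribo-Seq replicates 1 and 2 over replicate 3, r was 0.15 and 0.24. These correlations run across genes, which share the libraries and are not independent, and are given as a description. Log2 TE of the same genes had an r with coding length of -0.39 in the FL and -0.06 in the NT, and of -0.28 in the mesoderm over 170 genes. The part of length in the cyclases' values was not tested.

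**Figure D4:**
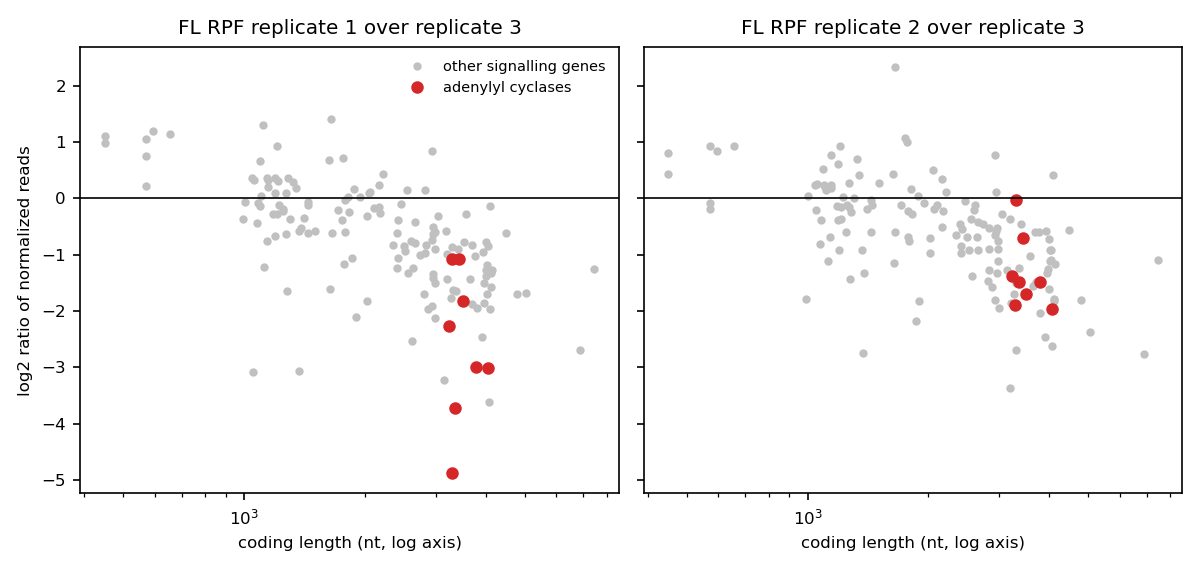
Log2 ratio of normalized reads in FL Ribo-Seq replicate 1 (left) and replicate 2 (right) to replicate 3 against coding length (log axis), for 151 signalling genes, with the 8 adenylyl cyclases in red. The ratio falls with length, with an r of -0.61 and -0.58, and all red points are below 0.

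Genes upstream and downstream of the cyclases were taken from the same signalling table. The 6 PKA subunits, the catalytic and regulatory parts of the kinase that cAMP activates, had a median log2 TE of 0.44 in the mesoderm, 0.38 in the NT and 0.36 in the FL, beside 0 for all genes by construction and -1.59, -1.05 and -2.41 for the cyclases. None of the 6 was TE-low or TE-high in any tissue. The highest was the regulatory subunit Prkar1a in each tissue, at 0.88 ± 0.18 (SE), 0.78 ± 0.21 and 0.93 ± 0.24, and the lowest were Prkar2b in the mesoderm (0.12 ± 0.19), Prkar2a in the NT (0.06 ± 0.22) and the catalytic subunit Prkacb in the FL (-0.05 ± 0.28). The FL median was 0.42 without FL replicate 3, and again none was called. No PKA subunit reached as low a TE as any cyclase in the same tissue with all libraries. The annotated coding lengths also differed, from 1056 nt (Prkaca) to 1251 nt (Prkar2b) against 3234 to 4062 nt in the cyclases. The part of length in this contrast was not tested.

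Phospholipase C genes, which the study places in its G protein-coupled receptor cascade, resembled the cyclases in their counts. The list mixes Plcb, Plcg, Plcd, Plce and Plch genes, which were not compared apart by what activates them. In the mesoderm 5 of 10 were TE-low, from Plce1 at -2.44 ± 0.29 to Plcd1 at -0.42 ± 0.17, with a median of -1.69. In the NT 0 of 8 were, from Plcg1 at -1.16 ± 0.29 to Plcb1 at 0.12 ± 0.35, with a median of -0.60. In the FL 4 of 8 were, from Plce1 at -2.98 ± 0.58 to Plcd1 at -0.21 ± 0.28, with a median of -1.65, and without FL replicate 3 there were 7 of 8, with a median of -2.23. The phospholipase C coding lengths ran from 2349 nt (Plcd1) to 6891 nt (Plce1). No test of one list against another was made.

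Between tissues, 3 of 6 PKA subunits had less mRNA in FL than in NT, where 12.3% of all genes did, and none had more, where 10.3% did. Prkar1b was at -2.49 ± 0.24 (adjusted p = 4.31e-06 by limma) and Prkacb, the highest, at 0.13 ± 0.27. In RPFs 3 were lower and 1 was higher in FL, where 22.7% and 22.6% of all genes were. They ran from Prkar1b at -2.44 ± 0.24 to Prkaca at 0.49 ± 0.19. Of the 8 phospholipase C genes, 1 was lower by mRNA, Plch1 (-3.94 ± 0.62), 4 were lower by RPFs and none was higher by either. No gene of either list was called for TE between the tissues with all libraries, where 0.276% of all genes were lower and 0.125% higher. The TE estimate was below 0 for 8 of 8 phospholipase C genes (median -1.36) and 2 of 6 PKA subunits (median 0.05). When FL replicate 3 was left out, 4 PKA subunits and 5 phospholipase C genes were lower in RPFs, where 31.2% of all genes were. Prkaca alone was higher, where 31.6% were. By mRNA 3 PKA subunits and Plch1 were lower, where 13.6% of all genes were, and Plcb3 was higher (0.97), where 11.2% were. In TE, 6 of 8 phospholipase C genes but no PKA subunit were lower in FL, where 19.3% of all genes were. No gene of either list had a higher TE, where 16.1% of all genes had.

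Over the 12 NT and FL libraries, the levels of Adcy1, Adcy2, Adcy5 and Adcy9 followed each other and those of other signalling genes. Among the other 150 signalling genes of the table, the one most like Adcy1 in log2(normalized reads + 1) was Adcy5, with a Pearson r of 0.99, and the one most like Adcy5 was Adcy1. Adcy9 was most like Adcy5 (r of 0.98) and Adcy2 most like Adcy1 (0.97). Receptor genes outside the family came about as near, with Gpr161 at 0.98 to Adcy1, Adcy5 and Adcy9, and Gpr153 at 0.98 to Adcy5 and 0.97 to Adcy9. The first match of the other four members was a gene outside the family. Adcy4 was most like the receptor gene Gpr124 (0.95), Adcy3 like the receptor tyrosine kinase gene Tyro3 (0.94), Adcy6 like the MAP kinase gene Mapk7 (0.95) and Adcy7 like Gpr125 (0.94). These values mix RNA-Seq and Ribo-Seq and include the FL libraries that stand apart, so they describe shared patterns over 12 libraries of 4 groups.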

How the data were processed

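RNA-Seq and Ribo-Seq of E11.5 mesoderm, NT and FL were analysed, with 3 replicates per group and 18 libraries. The authors trimmed adapters with cutadapt, removed rRNA, tRNA and snRNA reads, aligned the rest with Bowtie2 to canonical UCSC known gene transcripts (mm10), kept unique reads and counted them on coding sequences without the first 15 and last 5 codons. The deposited signal is these counts scaled by DESeq to a common effective size, here called normalized reads. The 2 tables were normalized separately. A step search in these values gave whole reads for 100.0% of values in every library, within 0.1 read, from which depth was estimated. A second check, which takes the smallest value as 1 read, did not accept 11 of the 18 columns, and the smallest RNA-Seq values stood for 6 to 13 reads. Count tests made before that check were dropped, and none is reported.

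Tests used limma 3.58.1 (R 4.3.3) with a mean-variance trend on log2(normalized reads + 1), with no filter on low values. The pseudocount understates changes of genes with few reads, and counting error limits genes with few RPFs. TE in a tissue was Ribo-Seq over RNA-Seq, and a block for the replicate followed the study's model. The study describes splitting the sorted mesoderm cells and the dissociated neural tubes into both library types, which pairs them. It does not state this step for the forelimb buds or for the frozen neural tubes. Deviations of same-numbered libraries from their group means correlated at 0.74, 0.58 and 0.57 in the mesoderm, -0.28, 0.35 and 0.05 in the NT and 0.05, 0.12 and 0.09 in the FL. FL against NT was the tissue effect and its interaction with library type, with no block. The fits were tested on simulated data with independent libraries, none of which stood apart. That test therefore does not cover the differences between the FL Ribo-Seq replicates. Positions and lengths came from GENCODE M21, where all 170 signalling genes matched. Python 3.11.15 with numpy 2.4.6, pandas 2.3.3 and scipy 1.17.1 was used elsewhere.

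The genes named are all 8 cyclases, the lowest and highest members of the PKA and phospholipase C lists, and the signalling gene most like each cyclase. PKA, receptor and kinase lists are those of the study's signalling table, and identifiers of Nes, Dcx, Msx1, Hoxd13 and Lhx2 came from its shortened tables. One further list is not reported here. The members and lists were chosen with earlier results of these data known. The alternatives were other pseudocounts, a filter on low values, other blocks, centring, other thresholds and leaving out each replicate. FL replicate 3 alone and fits of 1 library type were added after the data were seen.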

Additional observations from a re-analysis of the deposited data

How the results depend on the processing

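In 458 of 512 values of single cyclases under an alternative, the direction and the side of the threshold were those reported; 33 gained a call, 15 lost one and 6 turned sign. The planned edgeR and DESeq2 alternatives were run on the recovered reads and their results seen, and they are not reported, because a check did not accept whole reads for 11 of the 18 columns. At 2-fold from the median, the TE-low cyclases rose to 8 in the mesoderm, 4 in the NT and 8 in the FL, with 2596, 1317 and 2559 genes in all TE-low in the mesoderm, NT and FL. Pseudocount 8 took Adcy7 off the mesoderm calls (-1.57). Leaving out 1 replicate gave 4 to 5 TE-low cyclases in the mesoderm, 0 in the NT and 5 to 8 in the FL. Over all genes, 1160 to 1428, 435 to 620 and 1178 to 2046 were TE-low in the mesoderm, NT and FL. These fits of 1 tissue hold little replication, and their adjusted p rests largely on the spread shared over all genes. Without the replicate block, 4, 0 and 5 cyclases were TE-low, with 1296, 462 and 1483 genes in all. The FL call of Adcy2 was lost there (adjusted p = 0.0538 by limma).

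For TE of FL against NT, where 31 genes were lower and 14 higher, leaving out 1 replicate gave 0 to 6 cyclases lower, 0 to 2167 genes lower and 0 to 1805 genes higher. The replicate block gave 5 and 1 genes, the block of each sample's libraries 3 and 1, an adjusted p below 0.05 gave 3 and 1, and FL replicate 3 alone 0 and 0, with no cyclase called in any of these. Whether NT and FL numbers mark the same embryos is not stated; same-numbered Ribo-Seq libraries of the 2 tissues deviated with correlations of -0.29, -0.50 and -0.58, and the replicate block changed no call of a cyclase between the tissues. For mRNA, 1 to 3 cyclases were higher when 1 replicate was left out, with 755 to 1261 genes higher. FL replicate 3 alone gave 1 cyclase lower and 1 higher, with 860 and 473 genes. RNA-Seq alone gave 4 cyclases lower and 3 higher, with 2012 genes lower and 1836 genes higher. For RPFs, leaving out 1 replicate gave 3 to 5 cyclases lower and 0 to 1 higher, with 1602 to 3502 and 1297 to 3548 genes. FL replicate 3 alone gave 2 lower and 1 higher, with 1007 and 632 genes, and Ribo-Seq alone 1654 and 1520 genes.

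The turned signs were Adcy7 RPFs without FL replicate 2 (-0.01) or 3 (-0.02), where leaving out 1 replicate gave -0.02 to 0.52, and, with FL replicate 3 alone, Adcy6 RPFs (0.84) and TE of Adcy2 (0.32), Adcy4 (0.10) and Adcy6 (0.15). The cause was not tested. Adcy1 in FL Ribo-Seq replicate 1 rested on 4 reads and Adcy2 on 5, so the size of their TE there is poorly set at this depth.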

Other observations

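Other families of the signalling table were counted for context, with no test between lists. PI3-kinase genes had 3 of 8 TE-low in the mesoderm, 1 of 8 in the NT and 5 of 8 in the FL, with medians of -1.49, -1.25 and -2.13. The FL count without FL replicate 3 was again 5 of 8, with a median of -2.78. Protein kinase C genes had 0 of 8, 1 of 7 and 1 of 7 TE-low, with medians of -0.38, -0.37 and -0.39, and without FL replicate 3 again 1 of 7 in the FL, with -0.40. G protein-coupled receptors, the class of receptor that acts on the cyclases, had 11 of 31, 5 of 25 and 10 of 25 TE-low, with medians of -0.74, -0.81 and -0.96, and without FL replicate 3 again 10 of 25 in the FL, with -1.17. Over the 162 signalling genes of the mesoderm table other than the cyclases, the median log2 TE was -0.59, and over the 143 of the NT and FL table it was -0.34 in the NT and -0.59 in the FL, or -1.0 without FL replicate 3.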
